A study of Homo sapiens with 3 samples.

Results

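The peaks of histone H3 trimethylated at lysine 36 (H3K36me3) were examined over 3.8 Mb of band 8q24.21, the interval that holds the MYC gene, its long non-coding neighbour PVT1 and the gene-poor sequence on either side. Members were chosen by position alone: every peak that overlaps chromosome 8 from 127000000 to 130800000 on hg19. This gave 110 of the 117568 peaks listed for untreated cells and 123 of the 131801 listed after dihydrotestosterone (DHT). The interval was divided into a desert on the centromeric side of MYC (127700000 to 128740000), MYC (128748000 to 128754000), PVT1 (128807000 to 129113000) and the remaining sequence. A peak that crosses an edge was counted with the named region.

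Both libraries came from LNCaP, an established, androgen-responsive line of human prostate cancer cells, profiled by chromatin immunoprecipitation and sequencing with 1 antibody against H3K36me3. One library is from cells labelled as untreated. The other is from cells exposed for 4 h to 100 nM DHT, the main ligand of the androgen receptor in the prostate, in red-free RPMI. No other medium is given for the untreated library than the maintenance medium with 10% FBS, so the hormone and the medium cannot be told apart. With 1 library per condition no p-value was computed; all intervals are 95% intervals that cover counting error only and treat neighbouring peaks as independent. The read depth behind the peaks is unknown, and the score of a peak is the authors' value on a scale that the files do not state. It is used to describe peaks within a list. Peaks record where the caller's threshold was reached and not the amount of the mark. Markers of luminal prostate cells were not checked, since no gene positions on hg19 were used.

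MYC encodes a transcription factor that drives growth and division in many tissues. PVT1, which lies downstream of it and is transcribed in the same direction, is a long non-coding RNA gene often amplified together with MYC in tumours, and hosts several microRNAs. H3K36me3 is written by SETD2, which travels with elongating RNA polymerase II, so the mark lies over the bodies of transcribed genes and usually strengthens away from the promoter. The sequence between MYC and the next coding genes carries enhancers and long non-coding RNAs and is known for inherited variants linked to prostate and other cancers. In the RefSeq gene order of GRCh38.p14, used here for order only, LRATD2 is the protein-coding gene before POU5F1B and MYC, with 12 long non-coding RNA genes between LRATD2 and MYC. No gene lies between MYC and PVT1. PVT1 contains MIR1204, MIR1205, MIR1206 and MIR1207, and GSDMC is the first protein-coding gene after it.

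The mark was concentrated on MYC and PVT1 in both libraries and was sparse elsewhere. PVT1 held 51 untreated peaks and 82 after DHT, which is 16.7 peaks per 100 kb (12.4 to 21.9) and 26.8 (21.3 to 33.3). In the desert the density was 3.37 peaks per 100 kb (2.34 to 4.68) in untreated cells and 1.63 (0.952 to 2.62) after DHT. The density on PVT1 was thus 4.95 times that of the desert in the untreated list and 16.4 times in the DHT list. Peaks covered 12.9% of PVT1 in untreated cells and 14.0% after DHT, against 1.10% and 0.518% of the desert. Of MYC, 37.8% and 36.5% was covered. The flank telomeric to PVT1, the longest of the regions at 1687 kb, was covered over 0.173% and 0.156%.

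**Figure D1:**
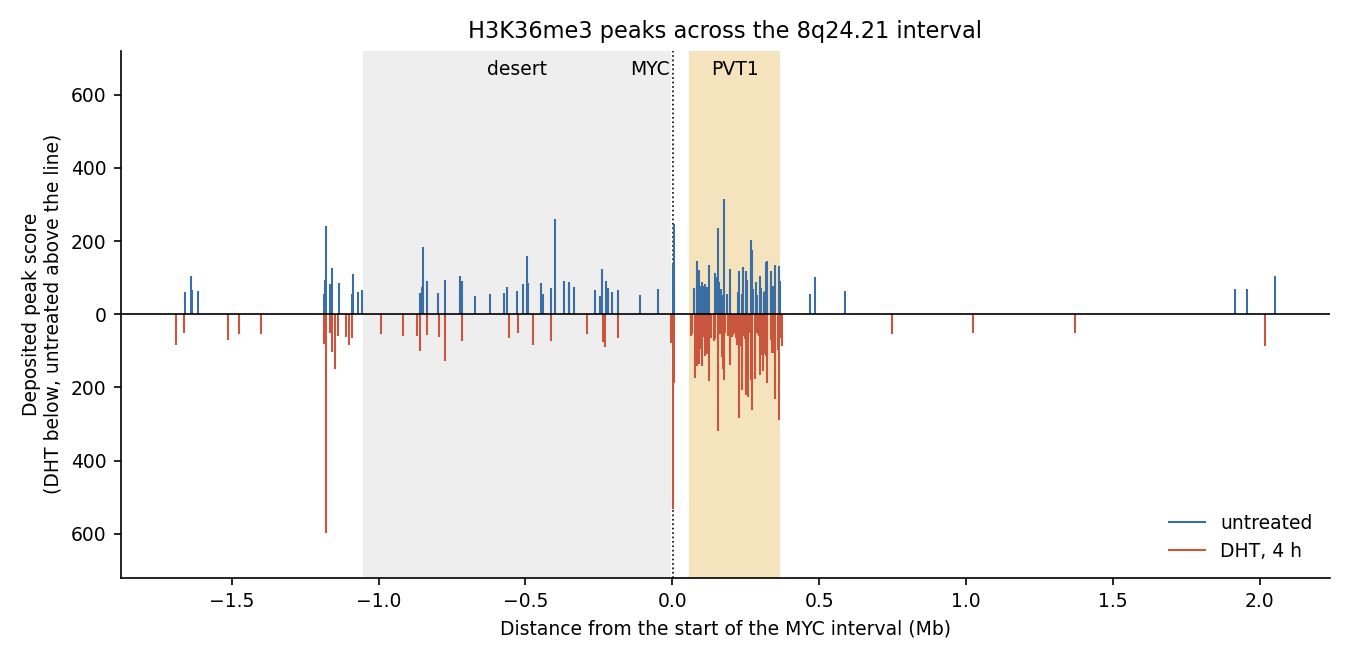
Every peak of the interval, placed by its distance in Mb from the start of the MYC interval, with the deposited score as height (untreated above the line, DHT below). Peaks crowd on PVT1 in both libraries, the highest DHT scores, 596 and 533, stand in the centromeric flank and at MYC, and the telomeric flank is nearly empty.

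Beside the rest of the genome, PVT1 and MYC stood high and the desert stood near the middle. Consecutive windows of the length of each region were laid along chromosomes 1 to 22, X and Y. PVT1 was more covered than 99.1% of 10095 such windows in the untreated list and than 99.0% after DHT. MYC was more covered than 99.3% of 515336 windows in both lists, most of which, 83.3% and 82.1%, held no peak. The desert, covered over 1.10% in untreated cells, was close to the median window at 1.13%, and 49.4% of 2961 windows were less covered. After DHT its 0.518% compared with a median of 1.03%, and 38.3% of windows were less covered. In untreated cells, then, the gene-poor sequence next to MYC was about as covered as the median window of its length. That median takes in windows without any untreated peak, 13.0% of them. Over all nuclear chromosomes together untreated peaks covered 2.08%, more than the 1.10% of the desert.

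The desert held fewer peaks after DHT, while PVT1 held more in the lists as deposited, a direction that turned when peaks were joined at 5 kb. In the desert, 35 peaks in untreated cells compared with 17 after DHT, a ratio of 0.486 (0.255 to 0.891). The covered bases numbered 11405 and 5388, a ratio of 0.472 (0.260 to 0.858). A peak number at least 1.5-fold lower after DHT was found in 3.53% of the 2041 genome windows of this length with at least 20 peaks over both lists. The median ratio of those windows was 1.11, and 0.392% of them had a lower ratio than the desert. On PVT1 the ratio of peak number was 1.61 (1.12 to 2.33), and in the lists as deposited its interval does not meet that of the desert. The peak number intervals of desert and PVT1 did meet joined at 1 kb, joined at 5 kb and at scores of at least 75. Joined at 1 kb the interval of the desert was 0.269 to 0.952. By covered length the intervals of desert and PVT1 met even in the lists as deposited. Over all nuclear chromosomes the ratio was 1.121, which the PVT1 interval, with its lower limit of 1.120, just includes. With each list joined at 5 kb the PVT1 ratio was 0.917 (0.490 to 1.71). Its interval included 1 in the higher-scoring 50% of each list (1.48, 0.887 to 2.51), joined at 1 kb (1.38, 0.898 to 2.12) and at scores of at least 75 (1.41, 0.874 to 2.29). A peak number at least 1.5-fold higher after DHT was found in 14.2% of 4039 windows of the length of PVT1, so a ratio like that of PVT1 was not rare. Peaks covered 39348 bp of it without treatment and 42949 bp with DHT, a ratio of 1.09 (0.722 to 1.65) that includes 1. The whole interval had ratios of 1.12 (0.858 to 1.46) for peak number and 0.953 (0.693 to 1.31) for covered length, and chromosome 8 as a whole had 1.069 and 1.018. How far a pair of untreated libraries would differ in the desert is unknown.

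Overlap between the lists also separated PVT1 from the desert. Of all untreated peaks on nuclear chromosomes 52.3% were overlapped by a DHT peak, and of all DHT peaks 48.5% by an untreated one. On PVT1, 37 of 51 untreated peaks were overlapped (72.5%, Wilson interval 59.1% to 82.9%) and 44 of 82 DHT peaks (53.7%, 42.9% to 64.0%). In the desert 3 of 35 untreated peaks were overlapped (8.57%, 2.96% to 22.4%) and 3 of 17 DHT peaks (17.6%, 6.19% to 41.0%). The untreated interval of the desert lies wholly below that of PVT1 and below the share over the genome. The DHT interval of PVT1 includes the 48.5% over the genome. At MYC the untreated share was 66.7% (20.8% to 93.9%), an interval that meets that of the desert. An overlap of at least 1 bp is easier to reach where peaks are dense and wide, as on PVT1. How much of the difference follows from this was not tested. Sequence covered in both libraries made up 35.3% of all sequence covered in either on PVT1, close to the 32.5% over all nuclear chromosomes, and 4.42% in the desert.

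**Figure D2:**
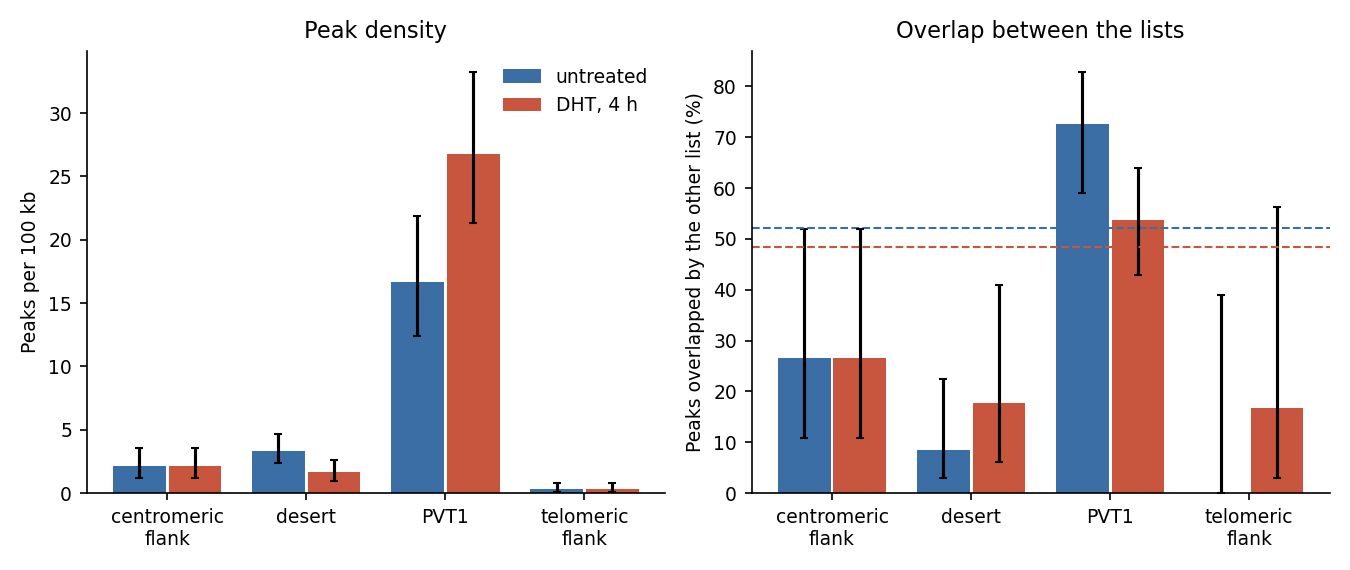
Left, peaks per 100 kb with exact Poisson intervals in the desert, PVT1 and both flanks (MYC is not plotted); right, the percent of each region's peaks that the other list overlaps, with Wilson intervals and dashed lines at 52.3% (untreated) and 48.5% (DHT) for all nuclear chromosomes. PVT1 is the densest of these regions in both lists, and the desert's untreated peaks are overlapped at 8.57%.

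At MYC the untreated list had 3 peaks and the DHT list had 2. The untreated peaks ran from 128750068 to 128751563 (1496 bp, score 140), from 128752655 to 128753332 (678 bp, score 248) and from 128753907 to 128754201 (295 bp, score 55.8). The DHT peaks ran from 128749950 to 128751366 (1417 bp, score 533) and from 128752259 to 128753032 (774 bp, score 188). The first peaks of the lists shared 1299 bp, or 86.8% of the untreated and 91.7% of the DHT peak. The second pair shared 378 bp, 55.8% and 48.8% of their widths, with the DHT peak shifted towards the start of the gene by 396 bp at its left end. The remaining untreated peak, which crosses the end of the MYC interval, had no DHT counterpart.

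The first 2.07 kb of the MYC interval carried no peak in untreated cells and the first 1.95 kb none after DHT, so in both libraries peaks began downstream of the start. Within its own list the higher-scoring untreated peak stood above 95.4% of peaks, and the higher-scoring DHT peak above 99.5%. The order of the peaks differed: the second peak had the higher score in untreated cells and the first after DHT. Covered length at MYC was 2268 and 2191 bp, a ratio of 0.966, for which 3 and 2 peaks give no usable precision. Upstream of MYC, the DHT list had a peak from 128743320 to 128743641 (score 78.5), 4.36 kb before the MYC interval, while the nearest untreated peak on that side ended 48.4 kb away.

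**Figure D3:**
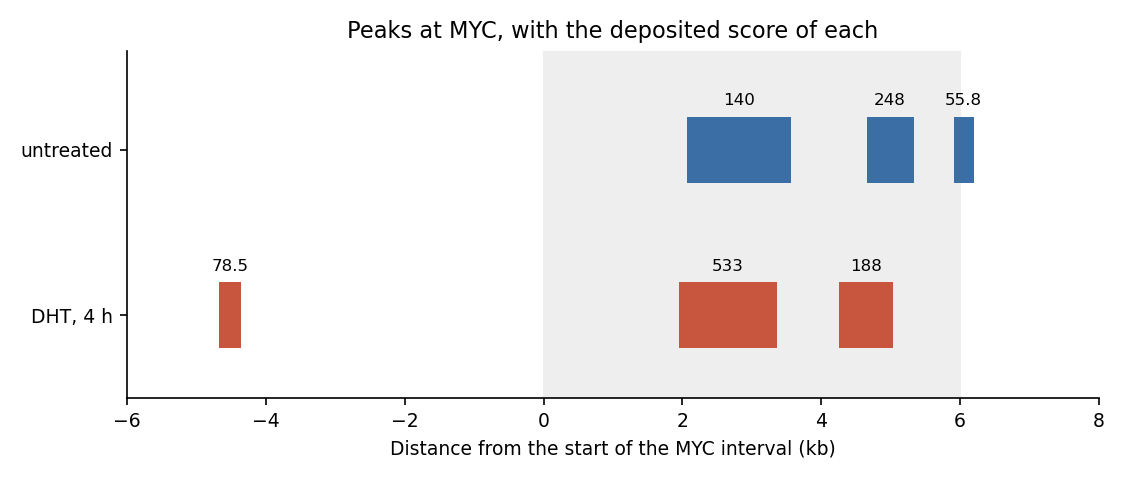
Peaks around MYC as bars along the distance in kb from the start of the MYC interval (grey), each with its deposited score. Both libraries have a wide peak that starts near 2 kb and a second one that starts between 4 and 5 kb; the untreated list has another at the end, and the DHT list has a peak 4.36 kb before the start.

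Between MYC and PVT1 no peak was listed in either library. The stretch free of peaks ran from 128754202 to 128810546 over both lists, 56.3 kb. It was 68.4 kb in the untreated list and 57.5 kb in the DHT list. On PVT1 the first untreated peak lay 15.6 kb inside the interval and the first DHT peak 3.55 kb inside.

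On PVT1 both lists gave a series of separate peaks, spread over the MYC-facing and the far part of the gene. The longest stretch of PVT1 without a peak was 23.8 kb in the untreated list and 13.5 kb in the DHT list. Peak calling can break a broad mark into short peaks, so the lists cannot tell separate sites from a continuous domain. When peaks of both lists at most 5 kb apart were joined, 17 blocks resulted, 15 of them with peaks of both libraries, and 60.9% of PVT1 lay inside them. The longest, from 128963329 to 129005746 (42418 bp), held 6 untreated peaks with 5679 bp and 16 DHT peaks with 9346 bp. The next, from 129029699 to 129070424 (40726 bp), held 11 and 18 peaks with 8185 and 8804 bp. In the desert the same joining gave 32 blocks, of which 19 were a single peak and 9 held both libraries, and 5.43% of its length lay inside blocks. Dense peaks join into blocks of both lists more easily. Median gaps between peaks were 4.59 kb (untreated) and 2.11 kb (DHT) on PVT1, against 15.4 and 45.6 kb in the desert. Whether blocks of both libraries exceed what density alone gives was not tested.

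PVT1 was cut at its midpoint, and coverage was higher in the part away from MYC in both libraries. The MYC-facing part was covered over 10.3% in untreated cells and the far part over 15.4%, and after DHT the values were 12.0% and 16.1%. In 10 equal bins, numbered from the MYC-facing end, untreated coverage ran from 3.87% in bin 5 to 25.3% in bin 10, a range of 6.56 times. After DHT it ran from 10.1% in bin 2 to 19.9% in bin 7, a range of 1.98 times. DHT coverage was higher in 6 bins and lower in 4, which were bins 2, 4, 9 and 10. In bin 5, where the ratio between the libraries was largest, 1183 bp were covered in untreated cells and 4098 bp after DHT. In bin 10, at the end of the gene, 7756 bp compared with 4626 bp.

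**Figure D4:**
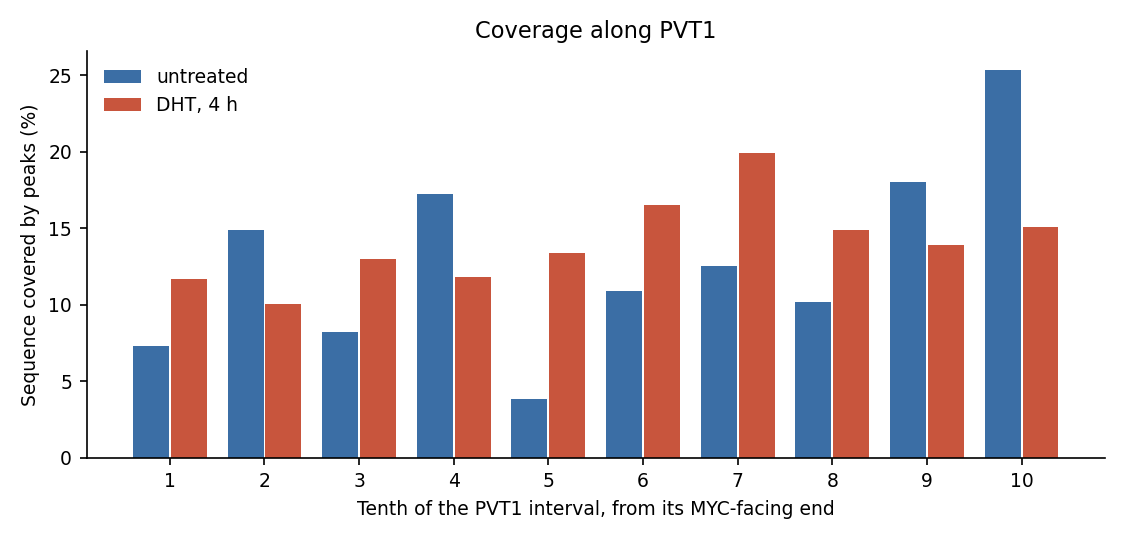
Percent of sequence covered by peaks in 10 equal bins of the PVT1 interval, numbered from the end that faces MYC; there is 1 library per bar and so no error bar. Untreated coverage varies from 3.87% to 25.3%, and DHT coverage from 10.1% to 19.9%.

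Bins 5 and 6 contain the longest stretch of PVT1 without an untreated peak, 23.8 kb from 128946075 to 128969856, singled out after its values were seen. In it lay 8 DHT peaks with 3954 bp. Their scores ran from 50.3 to 83.6 with a median of 60.2, below the median of 85.7 of the whole DHT list. The longest stretch without a DHT peak, 13.5 kb from 129070143 to 129083658, held or touched 3 untreated peaks with 1652 bp inside it. These scored from 87.3 to 146 with a median of 118, above the median of 81.2 of the whole untreated list.

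Several DHT peaks on PVT1 fell on the same, wider untreated peak. Of the untreated peaks, 7 were overlapped by at least 2 DHT peaks, and no DHT peak on PVT1 by 2 or more untreated ones. How often this occurs over the whole lists was not counted, so it cannot be called particular to PVT1. The widest peak of the interval, untreated from 129108624 to 129111807 (3184 bp, score 131), was met by 3 DHT peaks that covered 2717 bp of it. Untreated peaks on PVT1 had a median width of 652 bp, and 11 were at least 1 kb wide. After DHT the median was 476 bp and 3 were that wide. Over the genome the medians were 374 and 354 bp. There, 12058 of 117564 untreated peaks and 10309 of 131798 DHT peaks were at least 1 kb wide, so fewer wide peaks after DHT were also seen genome-wide.

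Most of the highest-scoring peaks of PVT1 had a counterpart in the other list. The first untreated peak by score ran from 128924920 to 128926289 (score 315), and DHT peaks scoring 181 and 52.1 overlapped it. The second ran from 128902824 to 128904411 (score 235) and contained most of the highest DHT peak, from 128903627 to 128904477 (score 319). A DHT peak of score 288 lay from 129110912 to 129111828, with 896 of its 917 bp inside the 3184 bp untreated peak near the end of the gene. All 10 of the highest untreated peaks had a DHT counterpart. Of the 10 highest DHT peaks 9 had an untreated one, the exception running from 129005433 to 129005746 (score 226), 3469 bp from the nearest untreated peak. The share overlapped among equally high-scoring peaks of the whole lists was not computed. On PVT1 overlapped peaks had higher median scores than the others, 87.8 against 71.1 untreated and 105 against 64.9 with DHT. The same held over all nuclear chromosomes, with 97.4 against 70.3 untreated and 113 against 72.5 with DHT, so this was not particular to PVT1.

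The desert's peaks were narrow, mostly low in score, and rarely in the same place. Median widths were 306 bp (untreated) and 321 bp (DHT), and none reached 1 kb. Scores had a median of 74.1 and 64.1, against 81.2 and 85.7 over the whole lists, and 57.1% and 70.6% scored below 75. The 5 highest untreated scores were 261 (128347992 to 128348414), 185 (127899374 to 127899659), 159 (128253708 to 128254194), 123 (128508741 to 128508916) and 105 (128025317 to 128025678), and none of these peaks met a DHT peak. The nearest DHT peak to the first of them was 12093 bp away. The highest DHT score was 128, from 127975707 to 127975903, inside an untreated peak of score 92.8, and the next was 101, from 127889213 to 127889488. The widest desert peaks measured 580 bp (untreated) and 483 bp (DHT).

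Only 3 places of the desert were marked in both lists: 127912398 to 127912673, 127975694 to 127975917 and 128562807 to 128563069 in untreated coordinates. Their untreated scores were 91.2, 92.8 and 65.5, and their DHT scores 57.2, 128 and 65.5. The median distance from an untreated desert peak to the nearest DHT peak was 11009 bp, while on PVT1 the median peak overlapped one. In 4 equal segments from the centromeric side, untreated peaks numbered 5, 9, 11 and 10, and DHT peaks 6, 3, 4 and 4. The lower number after DHT was therefore found in the 3 segments nearer MYC and not in the segment farthest from it. The longest stretch of the desert without a peak lay at its centromeric edge in untreated cells, 190.7 kb up to 127890649, and at its MYC-facing edge after DHT, 176.8 kb from 128563185. Between desert peaks the longest were 76.1 kb and 160.3 kb, the latter from 128032480 to 128192817. Desert peaks scoring at least 100 numbered 5 of 35 untreated and 2 of 17 with DHT, each on its own list's scale. Over all nuclear chromosomes they numbered 41215 of 117564 and 51863 of 131798.

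**Figure D5:**
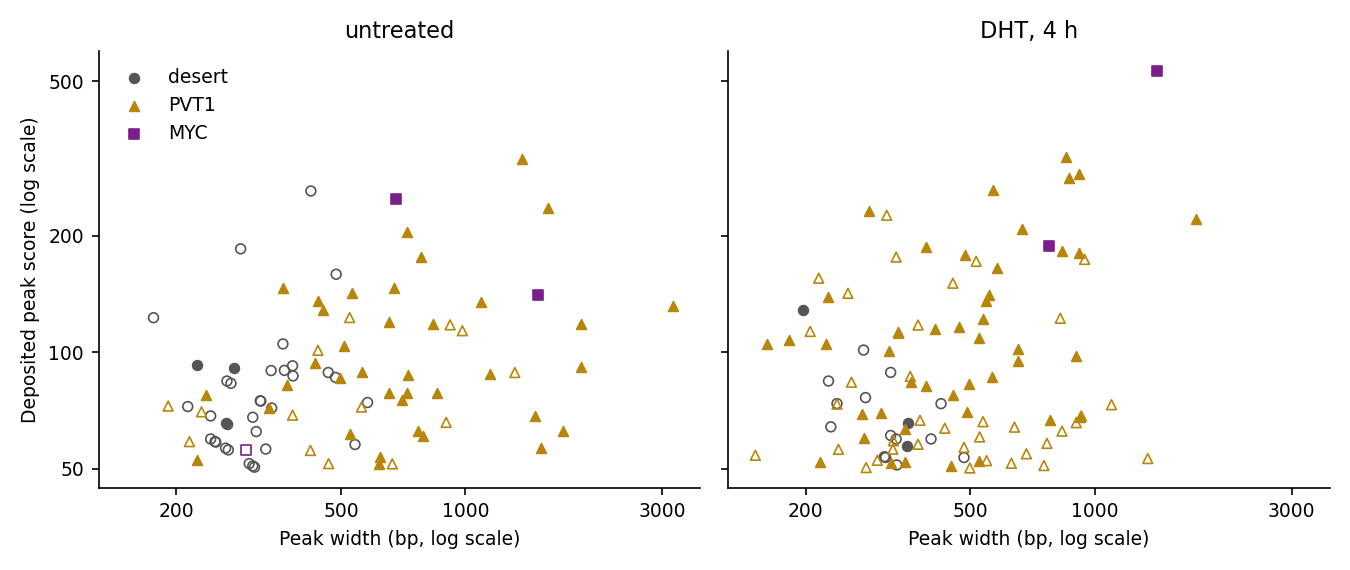
Width in bp against deposited score, both on log axes, for the peaks of the desert, PVT1 and MYC in each library; filled symbols are overlapped by the other list and open ones are not. Desert peaks, with medians of 306 and 321 bp, sit at the narrow end and are mostly open, PVT1 peaks extend to 3184 bp untreated and 1763 bp after DHT, and the highest point after DHT is the MYC peak of score 533.

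The remaining sequence held 21 untreated and 22 DHT peaks, a ratio of 1.048 (0.550 to 2.003). The centromeric flank had 15 in each list, 4 of each overlapped. Its strongest peak, named after its values were seen, ran from 127567803 to 127569639 (1837 bp, score 242) in untreated cells. After DHT it ran from 127567960 to 127569874 (1915 bp, score 596), the highest DHT score of the interval. It was not assigned to a gene. On its centromeric side, beyond untreated peaks scoring 54.1 and 92.5, lay a stretch of 428 kb without an untreated peak, from 127135006 to 127562716. In that stretch the DHT list had 3 peaks scoring 71.4, 52.5 and 52.7.

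Telomeric to PVT1 the mark nearly ended at the gene. The last untreated peak of PVT1 crossed its edge, from 129112482 to 129114386 (score 91.3), and the DHT peak from 129113268 to 129114194 (score 64.3), which lies inside that peak, began 0.267 kb beyond the flank's first base. Counting that peak, the telomeric flank had 6 peaks in each list. Apart from it no peak of the flank met one of the other list. The untreated list had no peak for 1327 kb, from 129336497 to 130663757, where the DHT list had 3, all of scores between 50.5 and 52.5. The highest-scoring peaks of the flank were 104 in untreated cells (130799039 to 130799189) and 88.0 after DHT (130765885 to 130766209), and the widest were 427 and 927 bp.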

How the data were processed

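Per the labels, H3K36me3 was profiled by ChIP-seq in LNCaP cells, with 1 untreated library, 1 library after DHT and 1 input library that was not analysed here. For each ChIP library the authors deposited peaks with a score per peak, called with MACS per the peak names. Coordinates are hg19, per the deposited lists' names, and are printed counting from 1. Neither the version, settings and control of the caller nor the aligner and depth are stated in the labels or lists used here. A mark that forms broad domains can be broken into several short peaks by such calling.

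Region limits and members were chosen with earlier results of these data known. A peak belongs to a region it overlaps by at least 1 bp. Ratios of peak number carry exact (Clopper-Pearson) intervals, densities exact Poisson intervals and shares Wilson intervals. The interval of a covered length ratio uses squared widths as a Poisson variance. Genome windows start at position 1, and partial windows at chromosome ends were left out. Named peaks are all those at MYC, the 10 highest-scoring on PVT1 (the text gives the leading ones and how many were overlapped), and the 5 highest-scoring and 3 widest in the desert and telomeric flank, of which the leading ones are given. Alternatives were the higher-scoring 50% of each list, equal covered length, joining at 1 and 5 kb, a 50% overlap, regions extended by 10 kb, shifted windows and, added after the data were seen, a score of at least 75. Python 3.11.15, NumPy 2.4.6 and SciPy 1.17.1 were used. Overlap, joining, distances and intervals were tested on 4000 simulated peaks, and 9 of 9 known answers were recovered.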

Additional observations from a re-analysis of the deposited data

How the results depend on the processing

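The peak number ratio of the desert was below 1 under every alternative run, from 0.20 in the higher-scoring 50% of each list to 0.556 with peaks joined at 5 kb, where its interval (0.275 to 1.08) included 1. By covered length the ratio of the desert was 0.153 (0.0431 to 0.543) in the higher-scoring 50%. Joined at 5 kb it was 0.337 (0.0766 to 1.48), an interval that includes 1. The peak number ratio of PVT1, 1.61, turned to 0.917 (0.490 to 1.71) when each list was joined at 5 kb. It was 1.48 (0.887 to 2.51) in the higher-scoring 50%, 1.38 (0.898 to 2.12) joined at 1 kb and 1.41 (0.874 to 2.29) at scores of at least 75, intervals that include 1. At that score limit, which assumes 1 scale for both lists, the whole lists kept 66077 untreated and 79984 DHT peaks. The ratio of the whole interval was 0.838 joined at 5 kb. Untreated and DHT peaks of PVT1 overlapped came to 91.7% and 90.9% joined at 5 kb, and 51.0% of the untreated ones had 50% of their width covered. Over the whole interval that share was 31.8%. Joining at 5 kb raised the listed sequence of the genome from 64.3 to 176 Mb (untreated) and from 66.0 to 200 Mb (DHT). Genome shares were not computed at these settings, so these values cannot be set beside the genome shares for unjoined peaks. At MYC the untreated share became 100% in the higher-scoring 50% and with joining at 1 or 5 kb. In all, 97 recomputed values, some of them given above, stayed inside the counting interval of the reported value. Another 10 moved outside it, and 1, the peak number ratio of PVT1 joined at 5 kb, reversed its direction. For MYC and the flanks these intervals are wide, so staying inside them says little. No paired analysis was possible because each condition has 1 library.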
